A study of Homo sapiens with 6 samples.

Results

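The enzymes that make purines, pyrimidines and deoxynucleotides, and the folate enzymes that feed them with one-carbon units, were followed in KNS42 cells, an established line of tumor cells from a childhood glioblastoma (GBM). The members are a named list of 35 genes, found by their symbols among the 58174 genes of the deposited expression table, and all 35 were present. They comprise 11 genes of deoxynucleotide (dNTP) synthesis and control, 5 of pyrimidine synthesis, 12 of purine synthesis, 2 of purine salvage and 5 of folate-dependent one-carbon metabolism. The mRNA-seq set cells that received siRNAs against MSI1 (siMSI1, n = 3) against cells that received a control siRNA (siC, n = 3), each harvested 72 h post-transfection. All 6 libraries come from this single line, with no further genetic change or agent in the labels. The labels do not say whether the 3 libraries of a group come from separate cultures, so the p-values measure the spread between these libraries, which may be technical.

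MSI1 is an RNA-binding protein of neural stem and progenitor cells that binds mainly to the 3′UTRs of mRNAs. Proliferating cells need dNTPs for DNA replication, and the genes of ribonucleotide reductase, thymidylate synthase and thymidine kinase are classic targets of E2F transcription factors at the G1/S transition. Purine rings are built on phosphoribosyl pyrophosphate and take carbon atoms from formyl-folate, while thymidylate synthase takes its methyl group from methylene-folate. Both folate forms are charged with carbon mainly from serine, by hydroxymethyltransferases in the cytosol and in mitochondria. Several steps are run by a pair of isozymes, encoded by related genes that can be regulated apart from each other.

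MSI1 itself was at 63.7, 61.9 and 66.9 FPKM in the siC libraries and at 12.1, 12.3 and 11.2 in the siMSI1 libraries (FPKM, the number of fragments scaled by gene length and by library size), a log2 fold change of -2.43 (adjusted p = 8.7e-06, limma). The libraries held 14448513 to 18024080 reads on genes in siC and 13087025 to 14700593 in siMSI1. Of the neural progenitor and glial markers, SOX2 was at 296 to 305 FPKM in siC and 243 to 279 in siMSI1, NES at 68.2 to 70.2 and 58.2 to 63.7, VIM at 996 to 1056 and 824 to 937, and CD44 at 83.4 to 86.6 and 57.7 to 65.4. These 4 genes were thus lower in every siMSI1 library, as was PROM1 (0.739 to 1.03 and 0.450 to 0.675 FPKM), whereas OLIG2 and S100B were at 0 in all. GFAP, a marker of astrocytes, was at 1.33 to 1.99 FPKM in siC and 4.14 to 5.04 in siMSI1, and FABP7, a marker of radial glia, at 34.3 to 38.4 and 15.1 to 17.8 FPKM, and whether these shifts bear on the genes below was not tested. The 11 markers of immune, endothelial, epithelial, neuronal and oligodendrocyte cells summed to 4.90 to 5.89 FPKM in siC and 4.78 to 5.50 in siMSI1, with AIF1, RBFOX3 and MOG at 0 in all libraries. The neuronal SYT1 was at 3.68 to 4.32 FPKM in siC and 3.18 to 3.70 in siMSI1, and the epithelial KRT8 at 0.924 to 1.19 and 0.721 to 1.45. CD68 (0.159 to 0.202 and 0.248 to 0.509), PECAM1 (0 to 0.00860 and 0.0449 to 0.0700) and CDH5 (0 to 0.0278 and 0.102 to 0.257) were higher in every siMSI1 library, with at most 22 reads. PTPRC, EPCAM and MBP stayed at or below 0.159 FPKM. The relation of expression to GC content differed between libraries, and was strongest in siMSI1 replicate 3 (correlation across genes of 0.24 between its deviation from the mean and gene GC content, against -0.21 to 0.16 in the other libraries). In bulk RNA, fewer cells in S phase and less mRNA per cell cannot be told apart.

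Upon MSI1 knockdown, 8 of the 35 genes passed an adjusted p of 0.01 in limma, with 5 lower and 3 higher. The folate enzymes SHMT1 and SHMT2, the purine enzyme IMPDH1, the ribonucleotide reductase subunit RRM2 and thymidylate synthase (TYMS) fell, whereas the folate enzyme MTHFD1, the kinase NME1 and the phosphoribosyl pyrophosphate synthetase PRPS1 rose. The log2 fold changes of all members lay between -0.77 and 0.54, so no member changed 2-fold. Among the 15069 genes tested, 1655 were called (11.0%), of which 879 were lower (5.83%) and 776 higher (5.15%). Most members are well expressed, with a median level of 23.9 FPKM against 5.20 over all tested genes, and among the tested genes with a mean of at least 5 FPKM 15.7% were called. The members' share of 22.9% stands above both figures and was given no test of its own, since the list was chosen with earlier results known. At an adjusted p of 0.05, 13 of the 35 members and 3787 of the 15069 tested genes (25.1%) were called. The share among genes with a mean of at least 5 FPKM was not computed at that threshold.

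The genes as a group had no common direction. Of the 35, 18 had a fold change below 0 and 17 above it, and their median was -0.05 on the log2 scale, against 0.00 over all tested genes. The median size of the change was 0.20 regardless of sign, close to the 0.24 of all tested genes. In 23 of the 35 genes the 3 siMSI1 values did not overlap the 3 siC values, while this held for 6456 of the 15069 tested genes (42.8%). That share was not computed for genes with a mean of at least 5 FPKM. The plot of fold changes by role shows decreases and increases within the dNTP, purine and folate groups alike.

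**Figure D1:**
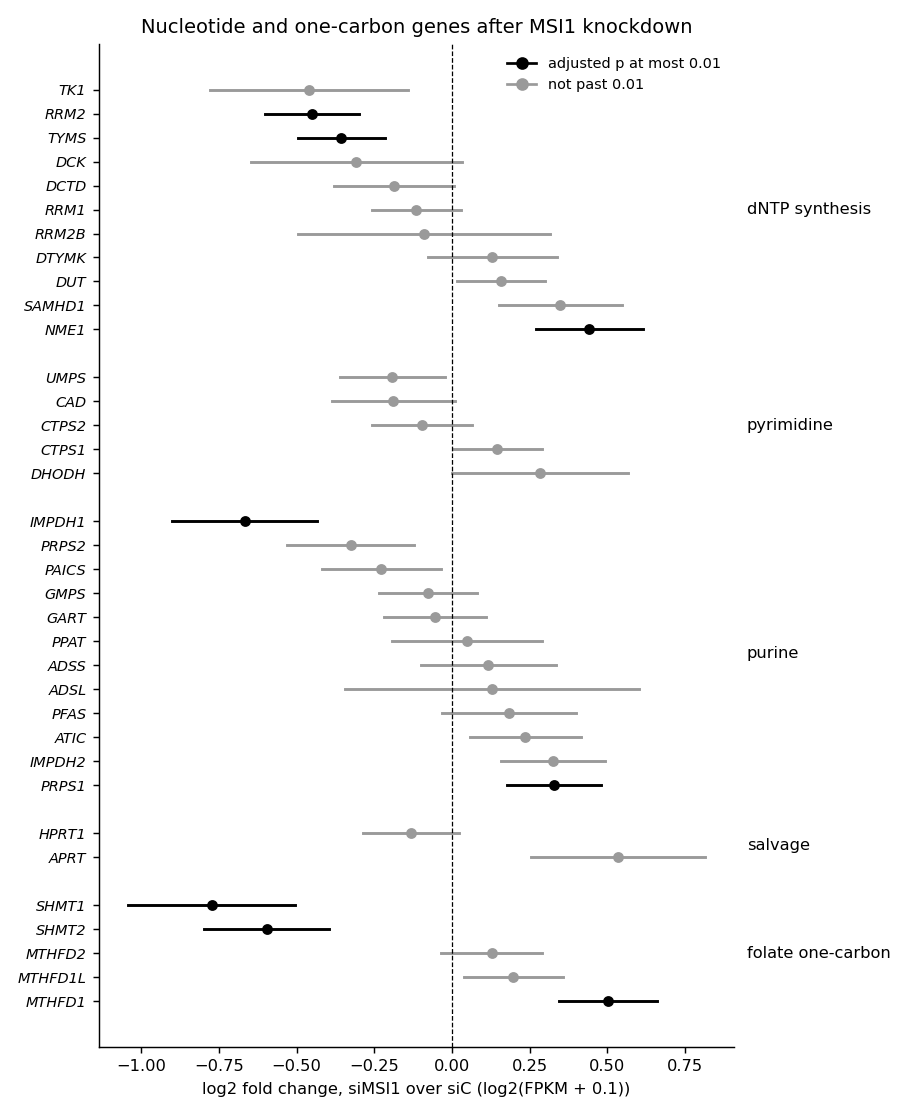
Log2 fold change of siMSI1 over siC on the log2(FPKM + 0.1) scale (x axis) for each of the 35 genes, grouped by role, with 95% confidence intervals from limma as bars. Black marks the 8 genes past an adjusted p of 0.01, which range from -0.77 (SHMT1) to 0.50 (MTHFD1), and grey marks the other 27.

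The calls were sensitive to the number of libraries and to how the variance was moderated. Without siC replicate 1, 0 members were called by limma, although 15 had an unadjusted p under 0.05. Leaving out siC replicate 2 left 2 calls (SHMT1 and SHMT2), siC replicate 3 left 1 (RRM2), siMSI1 replicate 1 left 2 (MTHFD1 and NME1) and siMSI1 replicate 2 left 2 (SHMT1 and MTHFD1), whereas leaving out siMSI1 replicate 3 gave 9, the 8 genes plus TK1. With no filter on low genes 2 were called (RRM2 and MTHFD1), and with variance moderation without trend and robust options 0 were, although 11 had an adjusted p of at most 0.05 and 18 an unadjusted p under 0.05. In contrast, limma's voom on the reads behind the FPKM called 13 members, and correcting each library for its GC trend called 11, with all 8 genes among them in each case. The share called over all tested genes, 11.0% as reported, moved as well. It was 3.43% without siC replicate 1 and 5.32% to 10.6% without 1 of the other libraries. With no filter it was 2.65%, and without trend and robust options 5.62%. It was 18.9% with voom and 20.4% with the GC correction.

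**Figure D2:**
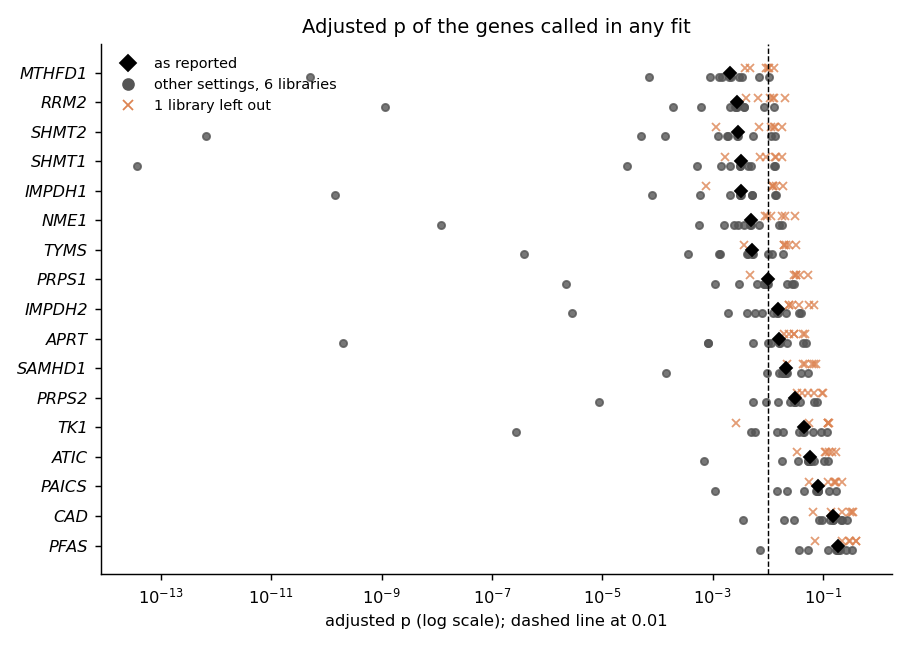
Adjusted p (x axis, log scale) of the 17 genes called in at least 1 fit, as reported (diamonds), in the other fits with all 6 libraries (circles) and with 1 library left out (crosses). The dashed line marks 0.01, and each of the 8 genes called as reported has at least 3 crosses to its right.

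Stretches upstream of 4 start sites are shown because they hold motifs named for regulators of these enzymes, and because TYMS and PRPS2 carry an E2F-type match while MTHFD1 carries an E-box. The promoter sequences are those of RefSeq on GRCh38.p14, from 250 bases before to 50 bases after the start, and 31 of the 35 genes were matched (not RRM2B, ADSL, IMPDH2 and SHMT2). Capitals mark the motif, and all 4 stretches read 5′ to 3′ on the plus strand, which is the strand of each gene.
TYMS, chr18:657603-657632, E2F-type motif read on the minus strand: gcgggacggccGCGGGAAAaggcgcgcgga
PRPS2, chrX:12791382-12791411, E2F-type motif: tacatctagccgccgcgcTTTCCCGCtccc
MTHFD1, chr14:64388323-64388352, E-box: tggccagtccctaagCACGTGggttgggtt
RRM2, chr2:10122662-10122691, CCAAT box: gggcaccaaagCCAATgggaagggccggga

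An E2F-type motif (TTTCCCGC, TTTCGCGC, TTTGCCGC or TTTGGCGC on either strand) lay in 3 of the 31 member promoters (9.68%), those of TYMS, PRPS2 and DCK, and in 3.33% of the 27305 RefSeq promoters of the same length. The E-box CACGTG, the sequence bound by MYC and MYCN with their partner MAX, lay in 7 of 31 (22.6%) and in 7.43% of all promoters. The 7 are DCK, DHODH, PPAT, ATIC, MTHFD1, MTHFD1L and NME1. The CCAAT box, read on either strand, was in 13 of 31 (41.9%) against 35.7% of all promoters, with 3 copies in RRM2. The ATF4-type motif TGATGNAA was in 2 of 31 (6.45%), DCTD and MTHFD1L, against 3.67%. Of the 4 matched genes that fell, 1 had an E2F-type motif and 0 an E-box, and of the 3 that rose, 0 had an E2F-type motif and 2 had an E-box. The CCAAT box was in 2 of the 4 that fell and in all 3 that rose. These are matches of letters in a fixed window and no measure of binding. The share over all promoters includes genes not expressed in these cells. No share over expressed genes or promoters of like GC content was computed, and no difference in shares was tested.

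Ribonucleotide reductase, which makes deoxynucleotides from ribonucleotides, showed a decrease in 1 of its 3 subunit genes. RRM2 (ENSG00000171848, chr2:10120698-10211725), the small subunit that is made in S phase and whose upstream CCAAT stretch is shown above, was at 51.7, 54.0 and 48.3 FPKM in siC versus 36.8, 37.6 and 38.2 in siMSI1. The siMSI1 values all lay below the lowest siC value, and RRM2 fell by 0.45 on the log2 scale (SE 0.065, adjusted p = 0.0028, limma), to 73.0% of siC. RRM1, the large catalytic subunit, was at 34.3, 35.9 and 33.2 FPKM in siC and 31.6, 32.9 and 31.1 in siMSI1, a difference of -0.11 (adjusted p = 0.22). RRM2B, the p53-induced small subunit used outside S phase, was at 5.62, 6.46 and 4.79 FPKM in siC and 6.36, 5.53 and 4.08 in siMSI1, with groups that overlapped (-0.09, SE 0.17, adjusted p = 0.75). RRM2 lost its call without siC replicate 1 (adjusted p = 0.021), siC replicate 2 (0.013), siMSI1 replicate 1 (0.012) or siMSI1 replicate 2 (0.011).

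Of the thymidylate genes, TYMS was lower in siMSI1. TYMS (ENSG00000176890, chr18:657653-673578), which methylates dUMP to dTMP, was at 77.7, 77.7 and 79.6 FPKM in siC versus 59.4, 60.3 and 64.0 in siMSI1. The siC values lay close together and stood clear of all siMSI1 values, and TYMS fell by 0.36 (SE 0.060, adjusted p = 0.0052, limma). Of the fits without 1 library, the call held only without siMSI1 replicate 3 (adjusted p = 0.0038), and without any of the other libraries the adjusted p was 0.019 to 0.032. With median centring of the libraries it was 0.0103. TK1, which salvages thymidine in the cytosol, was at 73.3, 63.8 and 75.0 FPKM in siC versus 45.9, 45.7 and 64.1 in siMSI1. The siMSI1 replicate 3 value exceeded the lowest siC value, so the groups overlapped and the difference of -0.46 (SE 0.14) did not pass (adjusted p = 0.045, limma). The adjusted p of TK1 was 0.0027 without siMSI1 replicate 3 and 0.056 to 0.13 without any of the other libraries. Over all 6 libraries it was 0.0058 with the GC correction, at much the same fold change (-0.455), and 0.12 with no filter on low genes.

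The enzymes around this step did not pass the test in either direction. DCTD, which deaminates dCMP toward the thymidylate pathway, and DCK, the main kinase of deoxycytidine salvage, had differences of -0.19 (adjusted p = 0.14) and -0.31 (0.17), with DCK at 3.97 to 6.44 FPKM over all libraries. DUT, which removes dUTP and supplies dUMP, was at 26.2 to 27.5 FPKM in siC versus 28.8 to 30.7 in siMSI1 (0.16, adjusted p = 0.095). DTYMK, which phosphorylates dTMP, was among the highest members at 53.1 to 61.5 FPKM in siC and 58.8 to 70.0 in siMSI1 (0.13, adjusted p = 0.33).

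At the end of dNTP synthesis, NME1 (ENSG00000239672, chr17:51153559-51162428), a nucleoside diphosphate kinase that makes triphosphates, was higher. It was at 22.1, 22.3 and 24.2 FPKM in siC versus 29.0, 31.4 and 32.9 in siMSI1. All siMSI1 values lay above the highest siC value, and NME1 rose by 0.44 (SE 0.074, adjusted p = 0.0049, limma), to 136% of siC. The call was lost without siC replicate 1 (adjusted p = 0.031), siC replicate 2 (0.021), siC replicate 3 (0.011) or siMSI1 replicate 2 (0.018). SAMHD1, which breaks dNTPs down and keeps their pools low outside S phase, was at 6.93, 6.91 and 6.33 FPKM in siC and 9.12, 7.87 and 8.82 in siMSI1. Its groups did not overlap, yet the difference of 0.35 (SE 0.085) missed the threshold (adjusted p = 0.022).

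**Figure D3:**
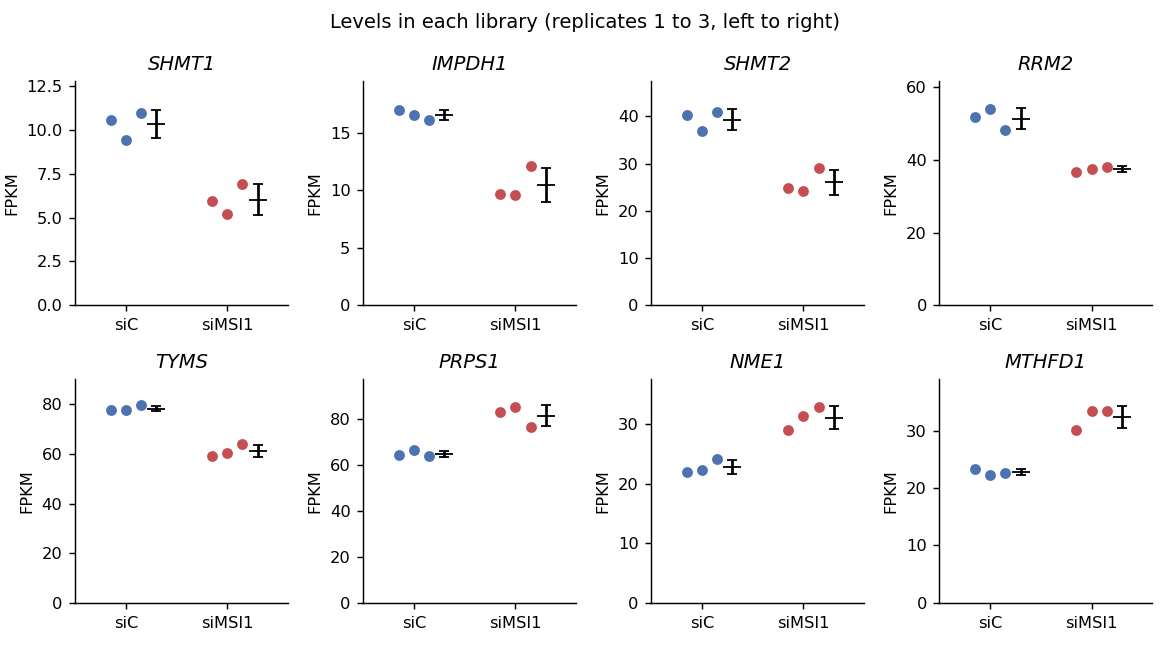
FPKM (y axis, from 0) of the 8 genes past an adjusted p of 0.01 in each siC (blue) and siMSI1 (red) library, with the mean and SD of the 3 libraries beside the points. The 3 siMSI1 points lie below all siC points for SHMT1, IMPDH1, SHMT2, RRM2 and TYMS and above them for PRPS1, NME1 and MTHFD1.

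None of the 5 pyrimidine genes passed the threshold, although 3 had an unadjusted p under 0.05 in limma, and 0 passed with voom without a block or with the GC correction. CAD, the protein that carries the first 3 activities of the pathway, was at 29.0, 26.9 and 30.4 FPKM in siC versus 25.6, 22.8 and 27.4 in siMSI1. The groups overlapped and the difference was -0.19 (95% interval -0.39 to 0.01, adjusted p = 0.15). UMPS, which completes UMP, was at 8.57 to 8.96 FPKM in siC and 7.35 to 8.13 in siMSI1 (-0.19, adjusted p = 0.091). DHODH, the mitochondrial enzyme of the pathway and its lowest member, was at 2.27 to 2.98 FPKM in siC and 3.10 to 3.32 in siMSI1 (0.28, adjusted p = 0.13). For the CTP synthetases CTPS1 and CTPS2, the differences were 0.15 (adjusted p = 0.12) and -0.10 (0.36).

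In the purine pathway, 2 of 12 genes passed, PRPS1 and IMPDH1. This share of 16.7% is near the 15.7% of tested genes with a mean of at least 5 FPKM (11.0% over all tested genes). PRPS1 (ENSG00000147224, chrX:107628428-107651993), which makes phosphoribosyl pyrophosphate from ribose 5-phosphate, was at 64.2, 66.2 and 63.7 FPKM in siC versus 82.8, 84.8 and 76.3 in siMSI1. Its siMSI1 values lay above all siC values and PRPS1 rose by 0.33 (SE 0.065, adjusted p = 0.00999, limma), just inside the threshold. The call ended with 1 FPKM added in place of 0.1 (adjusted p = 0.0102), with quantile normalization (0.0273), and without any library but siMSI1 replicate 3 (0.030 to 0.054, against 0.0048 without that one). PRPS2, its close relative with the E2F-type motif shown above, was at 38.2, 41.4 and 35.9 FPKM in siC versus 31.3, 33.1 and 27.8 in siMSI1. Here the siMSI1 values were all below the siC values, with a difference of -0.33 (SE 0.088) that did not pass (adjusted p = 0.032).

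The chain from phosphoribosyl pyrophosphate to IMP showed no gene past the threshold. PPAT, which catalyses the committed step, was at 3.10, 3.53 and 3.22 FPKM in siC versus 3.32, 3.70 and 3.19 in siMSI1, with overlapping groups (0.05, 95% interval -0.19 to 0.29, adjusted p = 0.77). GART, which uses formyl-folate in the first of the pathway's folate-dependent steps, differed by -0.05 (adjusted p = 0.62). PFAS, PAICS and ADSL, of the middle steps, differed by 0.18 (adjusted p = 0.19), -0.23 (0.081) and 0.13 (0.68). ADSL was the lowest of the 35 genes, at 0.76 to 1.07 FPKM (77 to 112 reads per library). It shares 11.1% of its exonic bases with another gene on the same strand (AL022238.4). Whether reads there were lost to ADSL was not tested. ATIC, which uses formyl-folate in the last steps, was at 24.0 to 25.9 FPKM in siC versus 27.2 to 31.8 in siMSI1 (0.24, adjusted p = 0.059).

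IMP dehydrogenase, the rate-limiting enzyme of guanine nucleotide synthesis, is encoded by a pair of genes, of which IMPDH1 fell, while IMPDH2 was higher in every siMSI1 library without passing the threshold. IMPDH1 (ENSG00000106348, chr7:128392277-128409986, minus strand), the isozyme most tissues express constitutively, was at 17.0, 16.5 and 16.1 FPKM in siC versus 9.65, 9.56 and 12.1 in siMSI1. All siMSI1 values were below the siC values, with siMSI1 replicate 3 the nearest, and IMPDH1 fell by 0.67 (SE 0.10, adjusted p = 0.0033, limma), to 63.1% of siC. Its adjusted p was 0.00077 without siMSI1 replicate 3 and 0.012 to 0.019 without any other library. IMPDH2, the isozyme typical of proliferating cells, was at 46.5, 44.7 and 50.0 FPKM in siC versus 56.3, 58.0 and 62.8 in siMSI1. These groups did not overlap, and the difference of 0.33 (SE 0.072) lay just outside the threshold (adjusted p = 0.015; 0.0019 with the GC correction and 0.0041 with voom). Downstream of IMP, GMPS, which completes GMP, and ADSS, which leads toward AMP, differed by -0.08 (adjusted p = 0.45) and 0.12 (0.40).

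Of the salvage enzymes, neither passed, although APRT had an unadjusted p under 0.05 in limma and was called with voom (adjusted p = 0.00083) and with the GC correction (0.00082). APRT, which recycles adenine, was at 52.9, 44.3 and 54.3 FPKM in siC versus 66.5, 68.0 and 85.9 in siMSI1. All siMSI1 values lay above the siC values, siMSI1 replicate 3 the furthest, and the difference was 0.54 (SE 0.12, adjusted p = 0.016), the largest positive value of the 35 genes. HPRT1, which recycles hypoxanthine and guanine, was at 42.0 to 47.2 FPKM in siC versus 39.4 to 41.5 in siMSI1 (-0.13, adjusted p = 0.19).

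The folate group held 3 calls among 5 genes, and they split by function. This share of 60.0% stands beside 11.0% over all tested genes and 15.7% over those with a mean of at least 5 FPKM, and the difference was not tested. The serine hydroxymethyltransferases, which load the carbon of serine onto folate, fell in both compartments. SHMT1 (ENSG00000176974, chr17:18327860-18363563, minus strand), the cytosolic and nuclear enzyme, was at 10.6, 9.44 and 11.0 FPKM in siC versus 5.95, 5.20 and 6.93 in siMSI1. The groups were well apart, and SHMT1 fell by 0.77 (SE 0.12, adjusted p = 0.0032, limma), to 58.4% of siC, the largest change of the 35 genes. SHMT2 (ENSG00000182199, chr12:57229573-57234935), the mitochondrial enzyme, was at 40.3, 36.8 and 40.8 FPKM in siC versus 24.8, 24.3 and 29.0 in siMSI1. It fell by 0.60 (SE 0.087, adjusted p = 0.0029), again with no overlap. The calls of both were lost without siC replicate 1 (adjusted p = 0.0182 each), siC replicate 3 (0.014 each) or siMSI1 replicate 1 (0.0136 for SHMT1 and 0.0131 for SHMT2), and that of SHMT2 also without siMSI1 replicate 2 (0.012).

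The enzymes that interconvert the charged folates did not share this decrease. MTHFD1 (ENSG00000100714, chr14:64388031-64463457), the cytosolic trifunctional enzyme that yields formyl-folate for purines and whose upstream E-box is shown above, was at 23.3, 22.3 and 22.7 FPKM in siC versus 30.1, 33.4 and 33.5 in siMSI1. All siMSI1 values exceeded the siC values, and MTHFD1 rose by 0.50 (SE 0.068, adjusted p = 0.0021, limma), to 142% of siC, with the lowest adjusted p of the 35 genes. It narrowly lost its call without siC replicate 1 (adjusted p = 0.0130), siC replicate 2 (0.01002) or siC replicate 3 (0.0106). MTHFD1L, the mitochondrial formyl-folate synthetase, was at 7.86, 8.49 and 8.40 FPKM in siC versus 9.34, 9.57 and 9.51 in siMSI1, with no overlap but an adjusted p of 0.070 (0.20). MTHFD2, the mitochondrial dehydrogenase known for its high level in tumors, was at 12.1, 12.4 and 11.6 FPKM in siC versus 12.5, 13.9 and 13.1 in siMSI1, a difference of 0.13 (95% interval -0.04 to 0.29, adjusted p = 0.23).

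The isozyme pairs were then compared within each library as the log2 ratio of the first gene to the second, for 6 pairs. With 3 libraries against 3, the two-sided exact permutation test cannot give a p below 0.1, so no pair could pass. In 5 of the 6 pairs the ratios of the groups did not overlap (exact permutation p = 0.1 each, 0.12 adjusted over the 6). This count is a description, since the levels of 42.8% of single tested genes also did not overlap and the share over other pairs of genes was not computed. IMPDH1 made up 26.1% ± 1.45 (SD, n = 3) of the summed FPKM of its pair in siC and 15.0% ± 1.08 in siMSI1, with a log2 ratio lower by 0.99 in siMSI1. The summed FPKM of IMPDH1 and IMPDH2 was 63.6 ± 2.42 in siC and 69.5 ± 4.74 in siMSI1, and these sums overlapped by 1 siMSI1 library alone (66.0 FPKM in siMSI1 replicate 1 against 66.1 in siC replicate 3). Likewise, the share of PRPS1 was 62.7% ± 1.24 in siC and 72.6% ± 0.695 in siMSI1 (log2 ratio higher by 0.65), while the sum of PRPS1 and PRPS2 was 103 ± 4.10 and 112 ± 7.19 FPKM, again overlapping.

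The serine hydroxymethyltransferase pair showed the other arrangement. SHMT1 made up 20.8% ± 0.385 (SD, n = 3) of the pair's FPKM in siC and 18.8% ± 0.977 in siMSI1, a log2 ratio lower by 0.18, whereas the sum of SHMT1 and SHMT2 went from 49.6 ± 2.97 to 32.1 ± 3.46 FPKM without overlap. For MTHFD1 with MTHFD1L both the share (73.4% ± 1.24 and 77.3% ± 0.862) and the sum (31.0 ± 0.210 and 41.8 ± 2.06 FPKM) were higher in siMSI1. For CTPS1 with CTPS2 the share (78.1% ± 0.403 and 80.9% ± 0.832) and the sum (38.3 ± 0.969 and 40.9 ± 1.36 FPKM) were also higher in siMSI1, both without overlap. In the RRM2 and RRM2B pair the shares of RRM2 overlapped (90.2% ± 0.828 and 87.6% ± 2.57, p = 0.3, exact permutation test), and the sums (57.0 ± 3.73 and 42.8 ± 0.512 FPKM) did not.

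**Figure D4:**
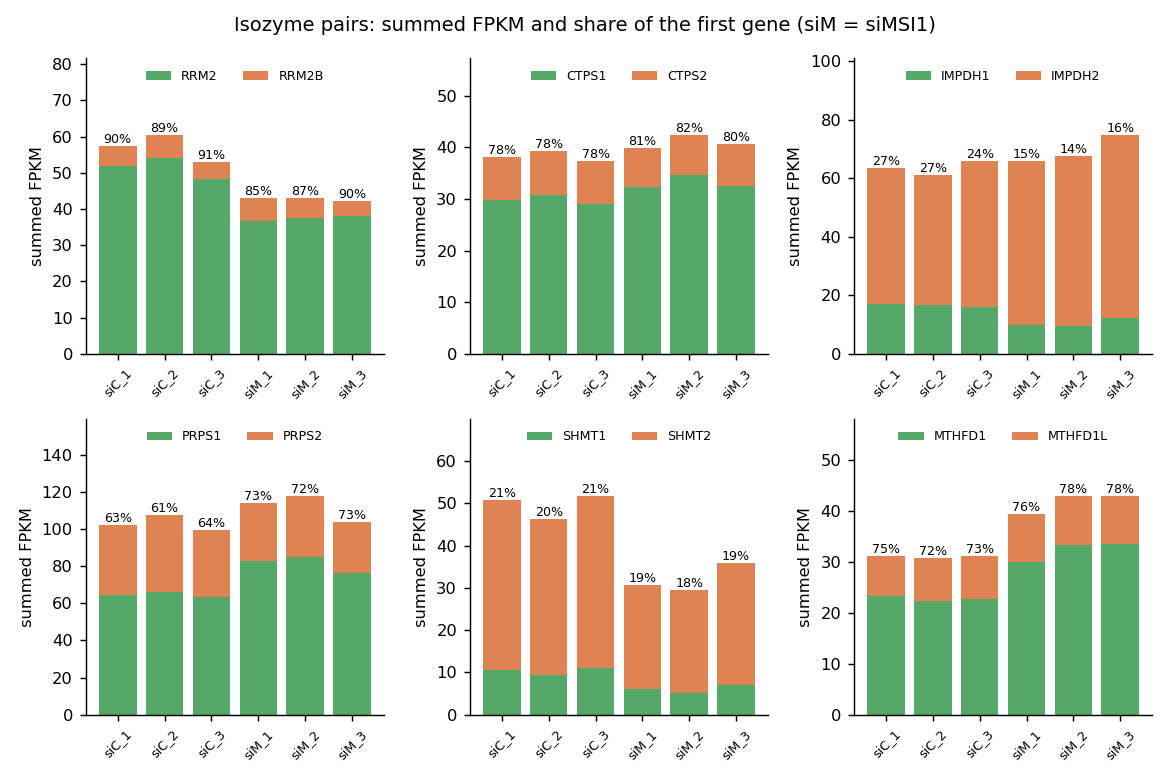
Stacked FPKM (y axis) of the 6 isozyme pairs in each library, with the first gene in green, the second in orange and the first gene's share of the sum in percent above each bar. The share of IMPDH1 lies at 24.4% to 27.0% in siC and at 14.1% to 16.2% in siMSI1 while the summed FPKM is 61.2 to 66.1 in siC and 66.0 to 74.9 in siMSI1, whereas both colors of the SHMT1 and SHMT2 bars are shorter in siMSI1.

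Some of these genes share sequence with others, which matters where reads are counted per gene. The libraries were strand-specific, but whether the counting used the strand is not stated. Of the exonic bases of TYMS, 39.9% overlap ENOSF1 on the opposite strand, which was at 1.57 FPKM in siC and 1.37 in siMSI1 (-0.20, adjusted p = 0.45). TYMS further overlaps the antisense RNA TYMSOS (-0.41, adjusted p = 0.056, limma). MTHFD1 overlaps the antisense RNA AL122035.2 over 8.96% of its exonic bases, and that RNA was at 2.23 FPKM in siC and 4.01 in siMSI1 (0.78, adjusted p = 0.027). The NME1-NME2 readthrough gene, which shares 18.7% of the exonic bases of NME1 on the same strand, had at most 4 reads in any library. AL022238.4, which shares 11.1% of those of ADSL on the same strand, had at most 2 reads. How reads in bases shared between genes were assigned is not stated. The low counts therefore do not show that NME1 and ADSL kept all of their reads. Of 44 pseudogenes named after 13 of the members, none had more than 32 reads in a library, and none more than 3.09% of the reads of its parent gene.

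Of 4 lists of further genes in the same and adjoining pathways, 3 had a share of calls of 6.90% to 14.3% and the pentose phosphate genes one of 37.5% (3 of 8), beside 11.0% over all tested genes and 15.7% over those with a mean of at least 5 FPKM, and no difference between these shares was tested. Of 21 tested further genes of folate, serine and glycine metabolism (28 listed), 2 passed, both lower. SLC46A1, a folate transporter, fell by 0.69 (adjusted p = 0.0088, limma). The call of SLC46A1 was lost in each of the 6 fits that leave out 1 library, with an adjusted p of at most 0.046. PHGDH, the first enzyme of serine synthesis, differed by 0.07 (adjusted p = 0.70).

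Among 29 tested genes of salvage and interconversion (40 listed), the adenylate kinase AK5 fell by 0.75 (adjusted p = 0.0053) and the mitochondrial nucleoside diphosphate kinase NME4 rose by 0.55 (adjusted p = 0.0028). Of 21 tested genes of nucleotide breakdown and pool cleansing (33 listed), 3 passed. NUDT1, which hydrolyses oxidized purine triphosphates, was at 39.0, 36.0 and 43.9 FPKM in siC versus 18.1, 19.0 and 22.4 in siMSI1, a log2 fold change of -0.997 (adjusted p = 0.0008) that held in all 6 fits without 1 library. ITPA, which removes inosine triphosphates, and NUDT16, which acts on inosine diphosphates, rose by 0.50 (adjusted p = 0.0016) and 0.52 (adjusted p = 0.0032). Of 8 tested genes of the pentose phosphate pathway, which supplies the ribose, PGLS fell by 0.72 (adjusted p = 0.0030), whereas RPIA rose by 0.66 (adjusted p = 0.0029) and TKT by 0.52 (adjusted p = 0.0066). Without siC replicate 1, none of AK5 (adjusted p = 0.027), NME4 (0.0148), ITPA (0.0144), NUDT16 (0.020), PGLS (0.0149), RPIA (0.0154) and TKT (0.029) passed, and apart from ITPA each also lost its call without siMSI1 replicate 1 (0.011 to 0.020) and, in part, without others.

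Of 16 S-phase genes of DNA replication, all tested, 11 fell and 0 rose, with a median of -0.50 over the 16, while 5.83% of all tested genes fell and 5.15% rose. The other 5 (CDT1, RFC4, GINS1, POLA1 and POLE2) did not pass. GINS2 fell by 1.29 (adjusted p = 0.00013, limma), CDC6 by 0.95 (0.0004), CDC45 by 0.81 (0.00055), MCM5 by 0.73 (0.0041), MCM4 by 0.65 (0.00059) and PCNA by 0.62 (0.0017). The decreases of GINS2, CDC6, CDC45 and MCM4 passed in all 6 fits without 1 library, whereas PCNA lost its call without siC replicate 1 (adjusted p = 0.013) and MCM5 without siC replicate 1 (0.022), siC replicate 3 (0.017), siMSI1 replicate 1 (0.018) or siMSI1 replicate 2 (0.015). Whether the levels of RRM2 and TYMS follow the share of cells in S phase was not tested.

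Of 18 transcription regulators named for these pathways, 5 passed (27.8%). The share was 11.0% over all tested genes and 15.7% over those with a mean of at least 5 FPKM, and no difference was tested. E2F1, an activator of G1/S genes, was at 39.6, 33.4 and 41.2 FPKM in siC versus 19.7, 18.6 and 23.1 in siMSI1, and fell by 0.89 (adjusted p = 0.0014, limma), a call that held in all 6 fits without 1 library. E2F2 fell by 0.56 (adjusted p = 0.0047) and TFDP1, the partner of E2F proteins, by 0.38 (adjusted p = 0.0035), while E2F5, of the repressive E2F branch, rose by 0.54 (adjusted p = 0.0096). E2F2 and E2F5 missed the threshold in all 6 fits without 1 library (adjusted p of 0.01003 to 0.030 and 0.014 to 0.035), and TFDP1 in all but that without siMSI1 replicate 3 (0.012 to 0.027). MYCN, a MYC family factor known to activate nucleotide synthesis genes, was at 76.0, 78.1 and 80.6 FPKM in siC versus 123, 119 and 118 in siMSI1, and rose by 0.62 (adjusted p = 0.00055), also in all 6 fits without 1 library. MYC was low in all libraries, at 0.20 to 0.71 FPKM, with a difference of -0.53 (adjusted p = 0.38). ATF4, which activates the serine and mitochondrial folate genes upon amino acid shortage, was at 61.5 to 63.6 FPKM in siC versus 69.0 to 77.7 in siMSI1 (0.25, adjusted p = 0.032). Whether the changes in E2F1, MYCN or other regulators bear on the 35 genes was not tested.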

How the data were processed

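Per the labels and the study's methods, polyA(+) RNA of KNS42 cells was sequenced from strand-specific libraries. The authors clipped reads with Cutadapt 1.14, aligned them to GRCh38 with HiSat2 2.1.0 (SAMtools 1.5), counted them per gene with FeatureCounts 1.5.3 on Ensembl release 89 and deposited FPKM per gene and library. The deposited columns of the authors' own comparison (log2 fold change, p-value and FDR, computed with edgeR 3.18.1) were not used. The reads behind each FPKM value came out whole within 0.01.

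Genes with a mean of at least 0.5 FPKM were fitted as log2(FPKM + 0.1) with limma 3.58.1 in R 4.3.3 (eBayes with trend and robust, two-sided, no block), with Benjamini-Hochberg adjustment over all 15069 genes. The threshold was an adjusted p of 0.01. Fold changes are on the log2(FPKM + 0.1) scale, which understates changes of low genes. The code of the fit was checked on simulated reads, drawn independently for each gene and with no GC trend. This check does not measure the error rate in these libraries. The exact permutation test was run on isozyme ratios, with 0.1 FPKM added to each gene. Positions, overlaps and GC content were taken from GENCODE 44, on the same build.

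The 35 members and the gene lists were chosen with earlier results of these data known. Every member is accounted for. Values per library are given for members past the threshold, their paralogs and some preset enzymes, and of each further list up to 6 called genes by size of change, plus PHGDH, MYC, ATF4 and E2F1. Some genes that this rule covers are not reported here. Per-library values of TK1, APRT, NUDT1 and MYCN were added after they were seen. The 18 alternatives changed the added value, the filter, the scaling, the variance moderation, the threshold or the libraries, added a replicate block, or used voom on the reads. The GC correction was chosen after seeing the data. SDs and intervals rest on 3 libraries per group of 13087025 to 18024080 reads each.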

Additional observations from a re-analysis of the deposited data

How the results depend on the processing

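Of the 35 members, 33 kept their direction in all 17 other fits. RRM2B, never called, changed sign without siC replicate 2 and without siMSI1 replicate 3 (leave-one-out range -0.228 to 0.0861), and PPAT, never called, without siMSI1 replicate 2 (range -0.0116 to 0.0999). PHGDH changed sign without siC replicate 2 and siMSI1 replicate 3 (range -0.0199 to 0.157). The cause was not tested, for these or for the counts that follow. Without the filter 29846 genes were tested in place of 15069, which gave 792 calls in all, 2 members (1 lower, 1 higher), 0 of the further folate, salvage and pentose phosphate genes, 7 S-phase genes and 3 regulators. Plain moderation gave 847 in all, 0 members in either direction, 0 folate, 1 salvage and 0 pentose phosphate genes, 7 S-phase genes and 3 regulators. Median centring and quantile normalization each left 1 folate gene. voom on the reads gave 2855 in all, 13 members (6 higher) and 5 salvage genes. The GC correction gave 3047 in all, 5 higher members, 7 salvage and 6 breakdown genes. An adjusted p of 0.05 gave 3787 in all, 13 members (6 higher), 10 salvage genes, 6 breakdown genes and 9 regulators. Leaving out 1 library gave 517 to 1603 calls in all, 0 to 9 members (0 to 6 lower, 0 to 3 higher), 0 folate, 0 to 2 salvage, 1 to 3 breakdown, 0 to 3 pentose phosphate and 5 to 13 S-phase genes and 2 to 3 regulators, and a members' median of -0.0918 to 0.0525.

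The groups share replicate numbers, and no label says what a number marks. Deviations from the group means correlated at -0.066, 0.078 and 0.083 across genes between same-numbered libraries, and at -0.144 to 0.070 between others. In both groups replicate 2 had the lowest correlation with GC content (-0.205 in siC, -0.125 in siMSI1) and replicate 3 the highest (0.158, 0.240). The second principal component (19.4% of the variance) had the same order. The main fit did not take the numbers as pairs, and whether they mark a shared batch was not tested. With the replicate block, limma called 2250 genes in all and 11 members (5 higher), 1 folate, 6 salvage and 5 breakdown genes. voom with the replicate block called 5070 genes, 17 members (9 lower, 8 higher, with CAD at an adjusted p of 0.0036 the 1 pyrimidine gene called), 8 folate, 11 salvage and 9 breakdown genes and 12 regulators.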
